A study of Mus musculus with 8 samples.

Results

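Th1-like CD4 T cells of the mouse spleen were described in single-cell RNA sequencing of mice with a B cell deletion of Eif3e, a subunit of the translation initiation factor eIF3, and of their controls. A cell counted as Th1-like when it carried a CD4 T cell signature and a UMI (a counted RNA molecule) of at least 2 of the 5 genes Tbx21, Cxcr3, Ifng, Nkg7 and Ccl5. The signature asked for at least 2 UMIs of Cd3d, Cd3e and Cd3g together, at least 1 UMI of Cd4, none of Cd8a or Cd8b1, at most 1 of Cd79a and Ms4a1 together, none of Foxp3, and fewer than 2 of the 5 follicular helper genes Cxcr5, Pdcd1, Bcl6, Il21 and Tox2. This rule found 263 cells among 4451 CD4 T cells and 42183 cells of 4 libraries of total live splenocytes. The knockout (cKO) mice were Eif3e fl/fl Cγ1Cre Rosa26-YFP LSL and the controls were littermates with Cγ1Cre and Rosa26-YFP LSL, so that the Cre and the reporter were common to both. All were 2 months old and on a C57BL/6J background. Each genotype had 2 libraries, 1 in each of 2 batches, and each library held pooled cells of 2 to 3 mice. Cγ1Cre acts in B cells that have been activated, so the T cells described here belong to mice with altered B cells and are not themselves the cells in which the gene was to be deleted.

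Th1 cells are the CD4 T cells that make interferon gamma. T-bet, the product of Tbx21, drives this fate together with signals from IL-12 and IL-18 receptors, and it switches on Cxcr3, a chemokine receptor that takes the cells to inflamed tissue. Interferons in turn are sensed by many cell types and raise a shared set of antiviral genes, among them Ifit1, Ifit3, Rsad2 and Isg15, through a promoter element called ISRE. In the spleen some of the genes that define Th1 cells are also active in NK cells, in NKT cells, which are innate-like T cells that depend on Zbtb16, and in CD8 T cells.

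The 4 total libraries held 9566 to 11559 cells after cells with 100 genes or fewer or more than 10% mitochondrial UMIs were removed. The Th1-like cells numbered 71 and 77 in the control libraries of batch 1 and batch 2 and 49 and 66 in the cKO libraries. Their median depth was 7734, 5740, 5682 and 6947 UMIs per cell, close to that of naive CD4 T cells in the same libraries (7325, 6139, 6757 and 7463). Summed over cells, 353344 to 648467 UMIs stood behind each value below. A doublet score marked 1.77 to 3.11% of all cells and 1 of the 263 Th1-like cells. Each of the 4 total libraries shared 51 to 102 cell barcodes (0.482 to 0.974% of its cells) with each other library of the series, YFP+ libraries included. Within each such pair of libraries, the barcode of 0 to 2 Th1-like cells was shared.

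The 5 genes of the rule were unevenly detected, and these values only describe the choice of cells. Cxcr3 was found in 85.9% and 75.3% of control and 85.7% and 84.8% of cKO Th1-like cells. Nkg7, a granule membrane protein of cytotoxic lymphocytes, was found in 71.8 to 80.5% of them, and Ccl5, a chemokine of activated T cells, in 47.0 to 76.6%. Tbx21 was found in 49.3%, 45.5%, 44.9% and 42.4%, and Ifng in 43.7%, 36.4%, 26.5% and 39.4% (control batch 1, control batch 2, cKO batch 1, cKO batch 2). The most common combination was Tbx21, Cxcr3, Nkg7 and Ccl5 without Ifng, in 31 cells or 11.8% of all, and 18 cells carried all 5 genes. Ccl5 had the highest level of the 5, between 1132 and 1933 CPM (UMIs of the gene in the summed cells, scaled to a common total), and Tbx21 reached 73.9 to 108 CPM. CPM values of different genes share no length correction and are not compared further.

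**Figure D1:**
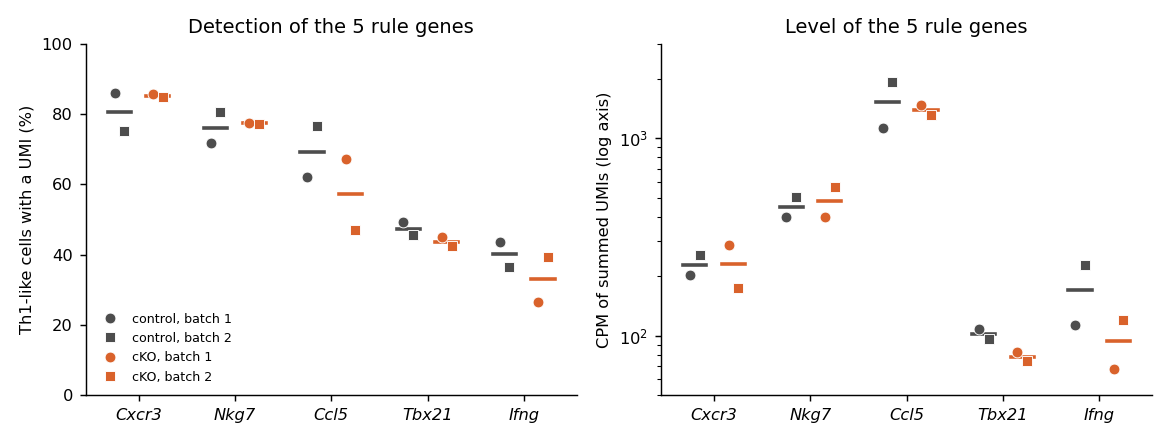
Share of Th1-like cells with a UMI (left, percent) and level (right, CPM of summed UMIs, log axis) of the 5 genes of the rule, 1 point for each library and a bar at the mean of each genotype. Cxcr3 and Nkg7 were detected in 71.8 to 85.9% of cells in every library, Tbx21 and Ifng in 26.5 to 49.3%, and the points of the genotypes lay within the same range except for Tbx21, whose cKO points were the lower ones.

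Cells just inside the rule, with exactly 2 of the 5 genes, numbered 26, 26, 15 and 30. Cells just outside it, with exactly 1 gene, numbered 61, 67, 66 and 92, so the cells with 1 gene were fewer than the class itself in both control libraries and more in both cKO libraries. The median depth of cells with 1 gene was 6929, 5992, 6969 and 7218 UMIs, and that of cells with 2 genes 7877, 5665, 6504 and 8745. Cells with 2 genes were the deeper ones in control batch 1 and cKO batch 2 and the shallower ones in the other two libraries.

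Against naive CD4 T cells (chosen by naive-cell genes, among them at least 2 of Ccr7, Lef1 and Igfbp4, and with none of the 5 Th1 genes), Th1-like cells carried many other effector genes, which is given as a description because both classes were cut by gene expression. Cxcr6, a chemokine receptor of tissue-homing effector and NKT cells, stood at 211, 444, 286 and 207 CPM in Th1-like cells and at 0.494, 0.797, 3.19 and 2.94 CPM in naive cells. Genes of the same kind that were at least 20 times higher in each library included Ccr2 and Xcl1, a chemokine receptor and a chemokine, Bhlhe40, a transcription factor that sustains Th1 cytokines, and Il18rap, part of the IL-18 receptor. Maf, a transcription factor of several effector lineages, was at 276, 198, 292 and 242 CPM against 9.14, 4.78, 10.1 and 8.22 CPM. The smallest per-library ratio of Maf was 28.9, and its level in CD8 T cells chosen by the same Th1 genes was 1.93 to 32.9 CPM.

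Several of the leading genes belong to NK and NKT cells. Klrb1c (the NK1.1 antigen) stood at 98.7 to 152 CPM in Th1-like cells, and Zbtb16 at 142, 114, 241 and 85.0 CPM, while naive cells held fewer than 3 UMIs of Klrb1c in every library. Klrk1, Klrc1 and Klrc2, receptors of NK and cytotoxic cells, were on the same list, as were Cd160, Myo1f, Atp8a2, Hip1, Atp2b4, Osbpl3 and Cxcl10, which encodes a ligand of Cxcr3. Kif15 and Mki67 are genes of dividing cells, and Mki67 was found in 23.9%, 9.09%, 20.4% and 21.2% of Th1-like cells against 0.366 to 4.05% of naive cells. The low value of Mki67 was that of control batch 2.

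**Figure D2:**
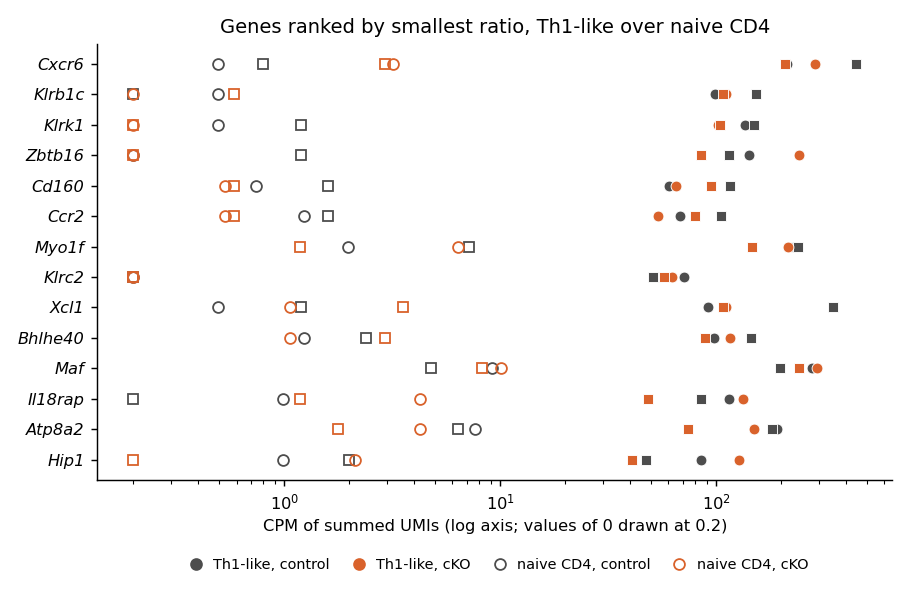
Level (CPM of summed UMIs, log axis) of the 14 genes with the highest smallest-per-library ratio of Th1-like over naive CD4 T cells, with filled points for Th1-like cells, open points for naive cells and values of 0 drawn at 0.2. In all 14 genes and 4 libraries the filled points lay to the right of the open ones, and NK and NKT genes such as Klrb1c, Klrk1 and Zbtb16 stood beside Cxcr6 and Maf.

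The genes that were lower than in naive cells were those of resting, recirculating T cells. Lef1, a transcription factor of naive cells that is part of the naive rule, was at 321, 241, 328 and 301 CPM in Th1-like and at 1573, 1244, 1211 and 870.3 CPM in naive cells. Outside the naive rule, Actn1 (a cytoskeletal crosslinker) was 4.45 to 8.49 times lower, Ifngr2, the second chain of the interferon gamma receptor, 4.17 to 18.3 times lower (the last against a floor of 3 UMIs), and Pik3ip1, an inhibitor of PI3 kinase, 2.94 to 4.30 times lower. Other genes on this list were Maml3, St8sia6, Pdlim4, Tmie, Slc49a4, Hspbap1, Pdk1, Klhdc1, Ly6c1, Itga6, Auts2, Rflnb, Klf7, Tubb2a and Usp28.

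The Th1-like cells were checked for cells of NK, NKT and gamma delta type, with 9 genes (Zbtb16, Klrb1c, Ncr1, Klrk1, Klrd1, Klra1, Klra7, Trdc and Tcrg-C1). At least 1 UMI of these was found in 38.0% and 57.1% of control and 42.9% and 34.8% of cKO Th1-like cells. The genotypes overlapped (exact permutation test, two-sided p = 0.667, the smallest p that 2 against 2 libraries can give being 0.333). Among naive cells the same share was 18.1%, 16.8%, 7.41% and 7.21%. Klrd1 was found in 13.6% and 12.9% of control and 2.96% and 3.604% of cKO naive cells. In Th1-like cells it was found in 15.5% and 27.3% of control and 20.4% and 10.6% of cKO cells, so control batch 1 was hardly separated. Trdc was found in 2.70 to 3.70% of naive and 0 to 2.60% of Th1-like cells and did not mark the latter. Zbtb16 separated the classes, with 31.0%, 32.5%, 36.7% and 24.2% of Th1-like cells against 0 to 0.495% of naive cells. Ncr1, which defines NK cells, was found in at most 3.90% of the Th1-like cells and 0 to 0.450% of naive cells.

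Cells with and without these 9 genes differed in which Th1 programme genes they held, again as a description. Cxcr6 stood at 527, 856, 568 and 515 CPM in Th1-like cells with an NK, NKT or gamma delta gene and at 17.4, 18.4, 74.3 and 39.9 CPM in those without. Il12rb2, the inducible chain of the IL-12 receptor, was at 369, 335, 218 and 158 CPM against 4.98, 29.5, 19.8 and 14.2 CPM. Ctla4, an inhibitory receptor, was placed the other way round, at 72.9, 232, 165 and 273 CPM with and 565, 678, 416 and 339 CPM without. Tbx21 lay in the same range in both (66.0 to 121 with, 54.1 to 122 CPM without), and so did Cxcr3 (170 to 271 and 162 to 302 CPM). Within the class, Cxcr6 and Il12rb2 thus sat mainly in the cells with NK, NKT or gamma delta genes.

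The first comparison asked whether the share of Th1-like cells among CD4 T cells differed with B cell Eif3e. They made up 7.02% and 8.94% of CD4 T cells in the control libraries and 4.45% and 4.46% in the cKO libraries. The means were 7.98% ± 1.36 and 4.46% ± 0.00561 (SD, n = 2 each), and both cKO libraries lay below both control libraries. The share fell by 0.83 on the log2 scale (edgeR quasi-likelihood test on cell counts over 5 classes of CD4 T cells, adjusted p = 0.0231, Benjamini-Hochberg). With the batch as a block the adjusted p was 0.0510, and the exact permutation test gave p = 0.333, the smallest it can give here. Leaving out control batch 2 gave 0.0518, cKO batch 1 gave 0.0631 and cKO batch 2 gave 0.0738, while without control batch 1 it was 0.0270. Each of these fits has 1 library in a genotype, which is assumed to vary like the libraries of the other.

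The fall depended on which cells stood in the denominator. The CD4 T cells as a whole numbered 1011 and 861 in controls and 1100 and 1479 in cKO, and within them the Foxp3+ class and the class with at least 2 follicular helper genes were larger in cKO, the latter with 81 and 55 cells in controls and 308 and 538 in cKO. The naive class was smaller in cKO, with 54.0% and 46.9% of CD4 T cells in controls and 24.5% and 15.01% in cKO, and it stayed in the next denominator. Among CD4 T cells outside these 2 classes, Th1-like cells made up 8.31% and 10.4% in controls and 7.80% and 10.5% in cKO, a log2 difference of -0.03 (edgeR, adjusted p = 0.909). Among CD4 T cells outside the naive class they made up 15.3% and 16.8% against 5.90% and 5.25%, a log2 difference of -1.53 (edgeR, adjusted p = 0.000514). Taken over all cells of the library the log2 difference was -0.37 (edgeR, adjusted p = 0.326). These denominators were chosen after the data had been seen, except that of all cells.

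**Figure D3:**
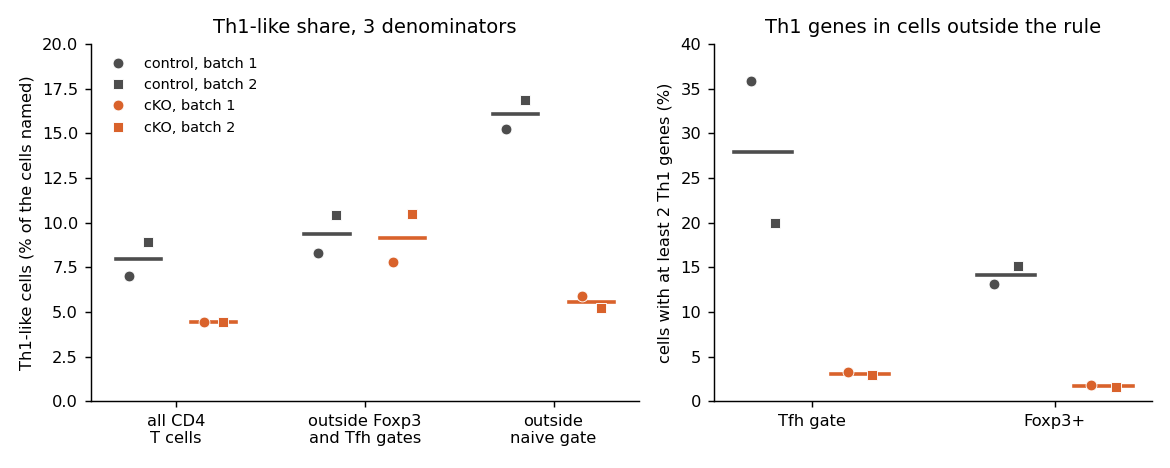
Share of Th1-like cells (left, percent of all CD4 T cells, of CD4 T cells outside the Foxp3+ and follicular helper classes, and of CD4 T cells outside the naive class) and share of cells with at least 2 Th1 genes within the follicular helper and Foxp3+ classes (right, percent), 1 point for each library and a bar at each mean. The cKO points lay below the control points in 4 of the 5 comparisons and overlapped them outside the Foxp3+ and follicular helper classes, where the means were 9.36% and 9.13%.

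The Th1 genes were also counted in the follicular helper and Foxp3+ classes, which the rule leaves out. In the class with at least 2 follicular helper genes, 29 of 81 and 11 of 55 control cells (35.8% and 20%) carried at least 2 Th1 genes, against 10 of 308 and 16 of 538 cKO cells (3.25% and 2.97%). In Foxp3+ cells the share was 13.2% and 15.2% in controls and 1.83% and 1.61% in cKO. The genotypes did not overlap in either class (exact permutation test, p = 0.333, the smallest possible with 2 libraries each). Single genes followed, with Cxcr3 in 50.6% and 36.4% of control and 5.52% and 4.46% of cKO cells of the follicular helper class, and Tbx21 in 23.5% and 9.09% against 0.649% and 1.49%. The median depth of the follicular helper class was 7780 and 6355 UMIs in controls and 6397 and 7453 in cKO, which overlapped. Markers of other cells moved with the Th1 genes in the follicular helper class. Its summed myeloid list stood at 1053 and 1362 CPM in controls and 199.9 and 152 CPM in cKO, and its NK list at 347 and 261 against 48.3 and 51.9 CPM, with 2 of 6 tested myeloid and 2 of 4 tested NK genes called lower, against 1.22% of all genes in that class. In Foxp3+ cells the myeloid list was at 167 and 163 against 163 and 180.4 CPM and the NK list at 60.1 and 32.6 against 24.9 and 94.4 CPM. The part of these cells in the counts was not tested.

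Over all CD4 T cells, with no rule on Foxp3 or follicular helper genes, at least 2 Th1 genes were found in 10.9% and 11.4% of control and 5.64% and 5.88% of cKO cells. The separation was wider than the spread between libraries of a genotype (means 11.1% ± 0.355 and 5.76% ± 0.174, SD, n = 2; exact permutation test, p = 0.333, the smallest possible). With the follicular helper genes taken out of the rule and Foxp3 kept in it, the log2 difference of the share was -0.88 (edgeR, adjusted p = 0.00631). Fewer Th1-like cells in a library and less RNA of these genes in each cell cannot be told apart where a rule counts cells with a UMI. When each cell was thinned to 2000 UMIs, the shares were 3.46%, 7.01%, 2.62% and 2.57% and the log2 difference was -1.01 (edgeR, adjusted p = 0.117).

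The second comparison asked which genes differed between the genotypes within Th1-like cells. Of 6912 genes tested, 6 passed (0.0868%), 5 higher in cKO (0.0723%) and 1 lower (0.0145%). All 5 higher genes, Ifit1, Ifit3, Rsad2, Isg15 and Slfn5, belong to the response to interferon. With the batch as a block 52 genes passed, 41 of them higher, and with DESeq2 2 passed. When the cell with the most UMIs of a gene was left uncounted in each library, Ifit1 was the only gene that still passed, an alternative added after the data had been seen. Simulated libraries of this size returned 94% of genes changed 4-fold and 27% of those changed 2-fold. The changed genes were drawn only from well-counted genes and given a fixed dispersion. Among such genes smaller differences were mostly not detected, and sparse genes such as Ifit1 and Rsad2 were not covered.

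The promoters of 4 of the 5 genes called higher, those on the interferon list, are shown because the interferon response acts through such elements. They are RefSeq promoters of build GRCm38.p6, each given 5′ to 3′ on the strand of the gene from 160 to 41 bases before the transcript start, with matches to the ISRE core in capitals. The core searched was GAAA followed by any 2 bases and GAAA again, or its reverse complement, TTTC followed by any 2 bases and TTTC.
Ifit1, chr19:34640729-34640848, plus strand: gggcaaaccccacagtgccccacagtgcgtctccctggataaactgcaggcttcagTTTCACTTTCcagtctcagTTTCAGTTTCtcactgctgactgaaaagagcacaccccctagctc
Ifit3, chr19:34583369-34583488, plus strand: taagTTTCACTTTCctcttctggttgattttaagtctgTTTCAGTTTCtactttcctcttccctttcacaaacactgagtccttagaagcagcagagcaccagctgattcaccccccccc
Rsad2, chr12:26456493-26456612, minus strand: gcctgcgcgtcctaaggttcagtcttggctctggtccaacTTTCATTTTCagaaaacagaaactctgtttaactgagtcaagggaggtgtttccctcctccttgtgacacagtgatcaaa
Isg15, chr4:156200859-156200978, minus strand: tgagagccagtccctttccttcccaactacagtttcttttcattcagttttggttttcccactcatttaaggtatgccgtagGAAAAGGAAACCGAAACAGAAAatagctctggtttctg
The 3 matches in Isg15 overlap. Of 27025 genes with a RefSeq promoter, 3.46% had a match on either strand within 250 bases before a start, against 3.55% of the 5554 tested genes that matched by symbol. All 5 genes called higher had a match, Slfn5 included, as did 14 of the 18 interferon-list genes with a RefSeq promoter. The promoter of Nrgn, the gene called lower, had none in this window. A match describes the letters and does not show that a factor binds there.

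Ifit1 (ENSMUSG00000034459, GRCm38 chr19:34640871-34650009), an RNA-binding antiviral protein, had 1 and 4 UMIs in the control and 32 and 32 UMIs in the cKO libraries. Its level was 1.53 and 7.49 CPM in controls and 92.2 and 65.3 CPM in cKO on the scaled (TMM) counts. It rose by 3.31 ± 0.456 (log2, SE; edgeR adjusted p = 0.00583). Both cKO libraries lay above both control libraries for this gene and for the next 4.

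Ifit3 (ENSMUSG00000074896, chr19:34583531-34588731), its neighbour on the chromosome, went from 1.53 and 7.49 CPM to 132 and 61.2 CPM, a rise of 3.58 ± 0.499 (edgeR adjusted p = 0.00583). Rsad2 (ENSMUSG00000020641, chr12:26442746-26456452), the antiviral enzyme viperin, had 1 UMI in each control library and 11 and 32 in the cKO libraries. Its ratio of cKO over control was 28.8 with a 95% counting interval of 7.51 to 246, which covers counting error only. Isg15 (ENSMUSG00000035692, chr4:156199424-156200818), a ubiquitin-like protein, went from 39.9 and 67.5 CPM to 251 and 182 CPM, and Slfn5 (ENSMUSG00000054404, chr11:82951349-82964840) from 58.3 and 46.8 CPM to 245 and 153 CPM. The fitted log2 differences were 3.25 for Rsad2, 1.94 for Isg15 and 1.83 for Slfn5, with adjusted p of 0.0104, 0.0411 and 0.0487 (edgeR).

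These rises sat in few cells. A UMI of Ifit1, Ifit3 or Rsad2 was found in 3 of 71 and 5 of 77 control Th1-like cells (4.23% and 6.49%) and in 9 of 49 and 9 of 66 cKO cells (18.4% and 13.6%; exact permutation test, p = 0.333, the smallest possible). The genes were chosen after their values in these cells had been seen, so the direction of this test was set. It adds no support to the calls and only describes how the UMIs were spread over cells. Cells with at least 10 UMIs of Ifit1, Ifit3, Rsad2 and Isg15 together numbered 0 and 1 in controls and 3 and 5 in cKO. The pair of cells with the most UMIs held 55.1% and 59.6% of all UMIs of these 4 genes in the cKO libraries. The median number of genes of the interferon list detected per Th1-like cell was 7, 6, 8 and 7.

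The cells with the most interferon UMIs were also read for their Th1 genes and for B cell RNA. The cells with 52 and 37 UMIs of the 4 genes in cKO batch 1 and with 71 and 13 UMIs in cKO batch 2 carried exactly 2 Th1 genes, the fewest that the rule admits. The others with at least 10 UMIs carried more, with 4 Th1 genes in the cell with 45 UMIs and 3 in the cells with 38, 22 and 12 UMIs. With at least 3 Th1 genes required, none of 4986 genes passed by edgeR (185 at unadjusted p below 0.05), while the log2 difference was 2.57 for Ifit1 and 2.61 for Ifit3, and the median of the interferon list was 0.56. In cKO batch 1 the 3 leading cells held 52, 45 and 37 UMIs of the 4 genes, 24, 11 and 19 UMIs of Slfn5, and 4 to 11 UMIs over the whole list of 13 B cell genes. In cKO batch 2 the leading cell held 71 UMIs of the 4 genes and 32 of Slfn5. None of these was marked as a doublet. The score also left unmarked a Th1-like cell of cKO batch 1 with 298 UMIs of the B cell list and 128 of the myeloid list. A missing mark therefore does not show that a droplet held a single cell. The leading control cell, with 14 UMIs in batch 2, was the 1 Th1-like cell that was marked. Over the 4 libraries the cKO values of Ifit1 were higher both in cells without NK, NKT or gamma delta genes (0, 0, 74.3 and 74.1 CPM) and in cells with them (4.05, 14.3, 112 and 31.5 CPM). In the cells with them the rise rested on 1 cell of each cKO library. It held 15 UMIs, most of those in cKO batch 1, and 6 UMIs, all of those in cKO batch 2. The marked cell held 3 UMIs, most of those in control batch 2.

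**Figure D4:**
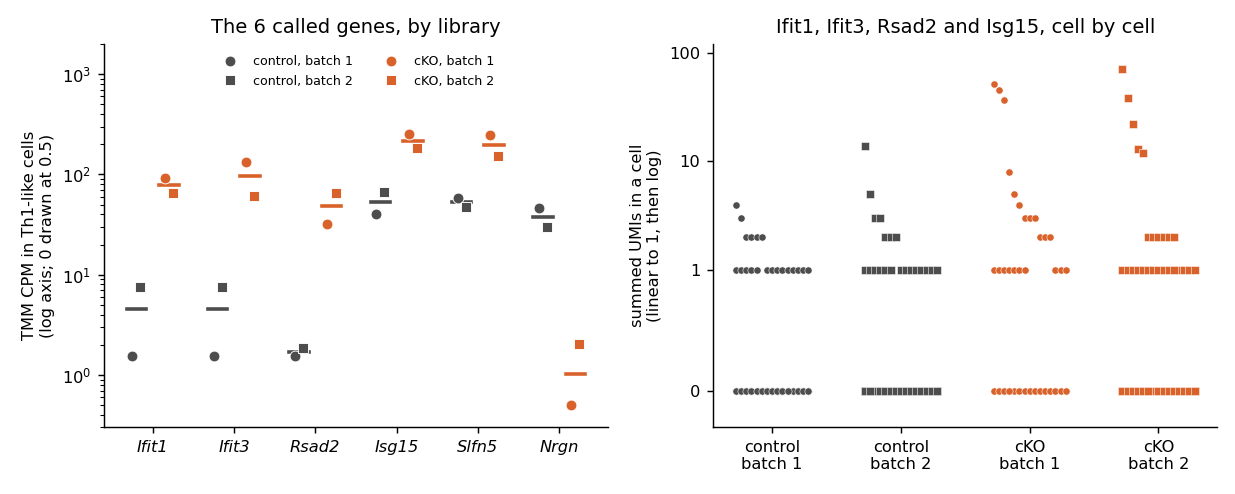
Left: level (TMM CPM, log axis, 0 drawn at 0.5) of the 6 genes called between genotypes in Th1-like cells, 1 point for each library and a bar at each mean. Right: UMIs of Ifit1, Ifit3, Rsad2 and Isg15 summed in each Th1-like cell (linear up to 1, then log). The cKO points of the first 5 genes lay above the control points, and 3 and 5 cells of the cKO libraries reached 10 UMIs against 0 and 1 of the control libraries.

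The interferon list as a whole leaned the same way. Of its 26 genes 24 were tested, 23 of them were higher in cKO, and 4 passed against 0.0723% of all genes called higher. Without adjustment 14 were higher at p below 0.05, against 1.9% of all genes (1.37% were lower), and in 17 the genotypes did not overlap with cKO higher, against 14.1% of all genes. The median log2 difference was 0.98, against -0.00308 over all genes tested. Irf7, the transcription factor that amplifies the response, stood at 12.3 and 24.4 CPM in controls and 57.6 and 53.0 CPM in cKO and did not pass. Bst2, which tethers budding virus (62.9 and 86.2 against 138 and 214 CPM), and Rtp4 (15.3 and 28.1 against 72.0 and 75.5 CPM) did not pass either. Stat2 was the member that was lower (29.2 and 20.6 against 25.9 and 12.2 CPM), and Irf1 had overlapping values, with 89.0 and 200.5 against 129.6 and 163 CPM. The list's summed level was 1945 and 2105 CPM in controls and 4234 and 3071 CPM in cKO. With the batch as a block 11 of the 24 passed (41 of all 6912 genes were called higher), and with DESeq2 2 of 25 (2 of all 9733). With the highest cell of each gene not counted 1 of 22 passed (1 of all 6158), 19 were higher and the median was 0.80. With at least 3 Th1 genes required 0 of 19 passed (0 of all 4986), 17 were higher and the median was 0.56.

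Of the genes higher in cKO without overlap that did not pass, 7 with the lowest p are named, of which Iigp1 is on the interferon list. Iigp1, an interferon-induced GTPase, went from 23.0 and 24.4 to 135 and 73.4 CPM (log2 1.95, edgeR adjusted p = 0.0890), and Ifitm3, an antiviral membrane protein, from 3.07 and 1.87 to 28.8 and 42.8 CPM (adjusted p = 0.0890). Rnf213, Ddx60, Ifi204 and Ncoa7 followed with adjusted p of 0.165 to 0.209. Stmn1, a microtubule regulator of dividing cells, went from 158 and 116 to 314 and 569 CPM (adjusted p = 0.0903).

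The interferon list was also read in the other classes of T cells, and its difference between genotypes was not tested between classes. Its median log2 difference was 0.29 in naive CD4 T cells, 0.16 in the follicular helper class, -0.19 in Foxp3+ cells, 0.17 in the remaining CD4 T cells, 0.40 in CD8 T cells with Th1 genes and 0.49 in other CD8 T cells. In NK cells it was 0.13. The list leaned higher in cKO in CD8 T cells too, with 21 of 25 genes higher in those with Th1 genes and 20 of 25 in the others. Cells with at least 10 UMIs of the 4 genes made up 0.781% and 1.08% of control and 2.27% and 2.75% of cKO CD8 T cells with Th1 genes. No gene of the list was called higher in any of these classes, and 1 was called lower in the follicular helper class and 2 in Foxp3+ cells. Of all genes, 0.216% were called higher and 0.0539% lower in naive cells, 1.32% and 1.22% in the follicular helper class, 1.01% and 1.11% in Foxp3+ cells, and 0.62% and 0.0428% in the remaining CD4 T cells. In CD8 T cells with Th1 genes 0.08% were called higher and 0.03% lower, in other CD8 T cells 0.0578% and 0.0193%, and in NK cells 0.0% either way. A UMI of Ifit1, Ifit3 or Rsad2 was found in 7.69% and 7.92% of control and 13.3% and 12.2% of cKO naive cells. The shares in control Th1-like cells, 4.23% and 6.49%, rested on 3 and 5 cells, and their difference from naive cells was not tested. For Ifit1 the difference between genotypes was tested against that of naive cells and exceeded it by 3.08 on the log2 scale (edgeR genotype by class term, adjusted p = 0.0200). This fit held each library as a block. With the batch as a block, batch and batch by class terms replaced the library block, and the call was lost.

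The test of the genotype by class term, with the library as a block, called 16 of 9161 genes (0.175%), 8 with a higher and 8 with a lower difference in Th1-like cells than in naive cells. Ifit1 was the only gene of the interferon list among them. With the batch as a block none passed (502 at unadjusted p below 0.05), and with DESeq2 2 did. For some of these genes the naive class differed between genotypes. Eomes, a T-box factor related to T-bet, stood at 0.988 and 1.59 CPM in control and 28.7 and 71.6 CPM in cKO naive cells. In Th1-like cells it was at 18.5 and 12.7 CPM in controls and at 22.6 and 96.1 CPM in cKO, where only batch 2 was high, with Eomes in 20 of its 66 cells against 2 to 6 cells in the other libraries. Fos, an early gene of cell activation, was at 205 and 371 against 136 and 143 CPM in naive cells, whereas in Th1-like cells it was at 162 and 403 against 331 and 408 CPM.

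The gene called lower, Nrgn (neurogranin, ENSMUSG00000053310, chr9:37544492-37552904), had 30 and 16 UMIs in control and 0 and 1 in cKO libraries. All 30 UMIs of control batch 1 came from 1 cell and 15 of the 16 of control batch 2 from another, so the call rested on 2 cells. The next genes lower in cKO did not pass. Nrn1 went from 30.7 and 65.6 to 5.76 and 8.16 CPM (edgeR adjusted p = 0.165), with 29 of the 35 UMIs of control batch 2 in 1 cell, and Mir155hg, the host transcript of miR-155, from 55.3 and 56.2 to 25.9 and 6.12 CPM (adjusted p = 0.469). Atg7, Rnf43, Mdfic, Pdlim5, Stimate, Esrra, Capn7, Dgkh and Neurl3 completed the list with adjusted p of 0.469 to 0.999.

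No tested gene of the Th1 pathway was called, where 0.0868% of all 6912 genes were called. No call in a short list, here and in the lists below, lies near that share and is not read as an absence of change. Of 20 genes of differentiation and cytokine receptors 17 were tested, 7 of them higher and none called, with a median log2 difference of -0.06. Stat4, which carries the IL-12 signal, stood at 537 and 431 CPM in controls and 674 and 573 CPM in cKO (log2 0.36 ± 0.301, edgeR adjusted p = 0.999). Il12rb2 was at 143 and 191 against 107 and 71.4 CPM (log2 -0.89 ± 0.323, adjusted p = 0.999), with both cKO libraries lower. Il18r1, a chain of the IL-18 receptor, overlapped (239 and 401 against 294 and 212 CPM). Runx3, a partner of T-bet, was at 124 and 146 against 161 and 159 CPM, without passing.

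Homing receptors and integrins also gave no call among the 9 tested of 11, with a median of -0.26. Cd44, the adhesion receptor of activated T cells, was at 258 and 247 against 230.4 and 161 CPM. Ly6c2, a surface antigen of effector and memory T cells, was higher in both cKO libraries, without passing (log2 1.19). It stood at 35.3 and 67.5 CPM in controls and at 173 and 73.4 CPM in cKO.

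Effector cytokines and chemokines had a median of -0.35 over the 9 tested of 13, with 2 higher and none called. Il2, the growth factor of T cells, had 15 UMIs in each control library and 2 and 3 in the cKO libraries, or 23.0 and 28.1 against 5.76 and 6.12 CPM (log2 -1.57 ± 0.540, edgeR adjusted p = 0.999). Tnf overlapped (47.6 and 61.8 against 37.4 and 67.3 CPM), as did Cd40lg, which gives help to B cells (414 and 669 against 323 and 520.1 CPM). Il10, an anti-inflammatory cytokine, was higher in both cKO libraries (16.9 and 1.87 against 57.6 and 34.7 CPM, adjusted p = 0.550), and all 20 of its UMIs in cKO batch 1 came from 1 cell. Ccl3 and Ccl4, chemokines of activated effector cells, stood high only in cKO batch 2, where 52 of the 81 UMIs of Ccl4 came from 1 cell.

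Among cytotoxic granule genes, Srgn, the proteoglycan that packs granules, was found in 94.4 to 98.5% of Th1-like cells and the protease gene Ctsw in 39.4 to 54.5%, while granzymes and perforin were sparse and uneven. Gzmb, a granzyme, had 2 and 15 UMIs in control and 14 and 27 in cKO libraries, with 12, 14 and 10 of them in a single cell of control batch 2, cKO batch 1 and cKO batch 2. Prf1, the pore-forming perforin, was found in 8 and 9 control cells and in 0 and 16 cKO cells. Gzma reached 22.7% of cells in cKO batch 2 and 3.90 to 5.63% elsewhere. None of the 11 tested genes of this list passed, and the batch 2 cKO library was the highest for Gzma, Prf1, Gzmk and Eomes.

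Of 10 inhibitory receptor genes tested, 3 were higher and none called, with a median of -0.27, and in 3 the genotypes did not overlap with cKO lower, against 13.2% of all genes. The gene at unadjusted p below 0.05 was Lag3, an inhibitory receptor that binds MHC class II, with 17 and 8 UMIs in control and 7 and 45 in cKO libraries, so that only cKO batch 2 was high. Ctla4 was at 376 and 467 against 314 and 349 CPM and Btla at 192 and 131 against 107 and 104 CPM, both with the cKO libraries below the control ones, while Tox overlapped (703 and 234 against 432 and 308 CPM). Follicular helper genes outside the rule had a median of -0.05 over 13 genes, with Maf and Icos overlapping between genotypes. Il4, the type 2 cytokine, stood at 44.5 and 245 against 23.0 and 110.1 CPM, with 97 of its 131 UMIs in control batch 2 and 28 of its 54 UMIs in cKO batch 2 in 1 cell each. Il17a and Il17f of the type 17 programme and Il5 of the type 2 programme had 0 UMIs in every library, and Il13 had 0 to 1. Other members were present, with 8 of 11 type 17 genes and 9 of 10 type 2 and ST2-linked genes detected. The summed type 17 list stood at 359 and 410 CPM in control and 371 and 209 CPM in cKO Th1-like cells. In naive cells it stood at 17.5 to 27.1 CPM. The summed type 2 list stood at 190 to 237 CPM in Th1-like and 157 to 247 CPM in naive cells.

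**Figure D5:**
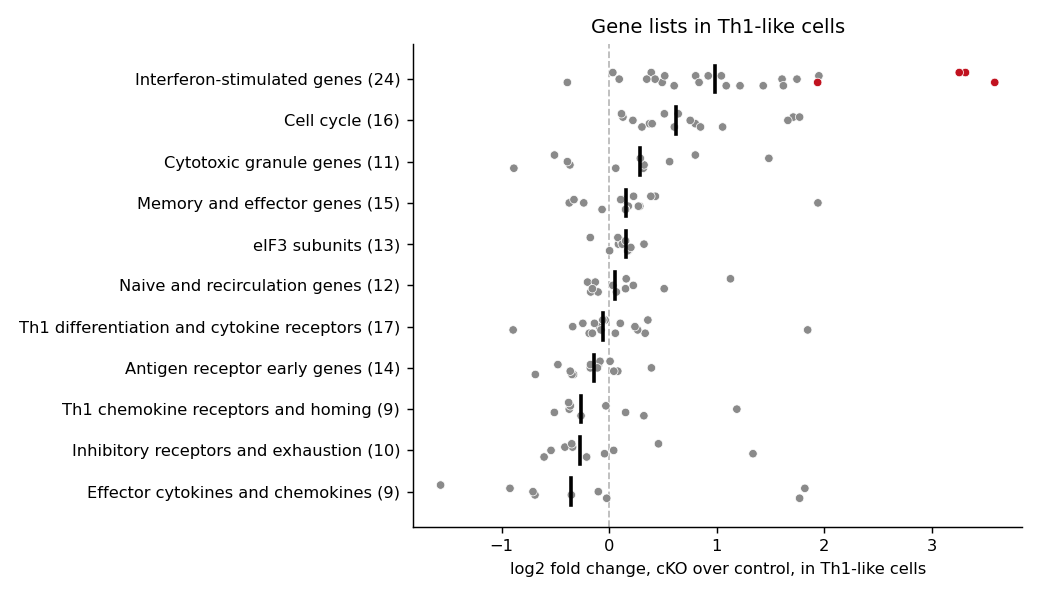
Log2 fold change of cKO over control in Th1-like cells for each tested gene of 11 gene lists (points, red where the gene was called), with the list median as a black bar, the number of tested genes in brackets and the median of all genes tested as a dashed line. The interferon list had the highest median, 0.98, and held the 4 called genes shown, and the cell cycle list had the next, 0.62, with none called.

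Cell cycle genes were higher in cKO for 16 of 16 tested genes, with a median log2 difference of 0.62 and none called. With the batch as a block 3 of them passed (41 of all 6912 genes were called higher), without control batch 1 5 passed (31 of 7445) and without cKO batch 1 2 passed (19 of 7635). Top2a stood at 149 and 52.5 against 236 and 473 CPM, and Cdk1 at 21.5 and 7.49 against 51.8 and 63.2 CPM. Mki67 was at 499 and 88.1 against 498 and 430.3 CPM, so only control batch 2 was low. In cells without NK, NKT or gamma delta genes 9 of 16 were higher and the median was 0.08. With the highest cell of each gene not counted, 16 of 16 were still higher and the median was 0.62. The lean was shared with most other classes. The median was 0.48 in naive cells, 1.18 in Foxp3+ cells and 0.78 in the remaining CD4 T cells. It was 1.01 in CD8 T cells with Th1 genes and 1.38 in other CD8 T cells. In the follicular helper class it was -0.65 and in NK cells -0.08. The difference between classes was not tested for this list.

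Of 15 memory and effector genes 11 were higher, against 3429 of all 6912 genes, with a median of 0.15 and none called. In 7 of the 15 the genotypes did not overlap with cKO higher, against 14.1% of all genes. Crip1, a LIM domain protein of effector cells, was at 454 and 515 against 699.8 and 609.8 CPM, and Vim, an intermediate filament, at 282 and 266 against 357 and 363 CPM. Naive genes had a median of 0.05. Genes that respond early to antigen receptor signals had a median of -0.14, and dissociation-linked early genes 0.01. The eIF3 subunits, of which 13 were tested, had a median of 0.15 and none called. Eif3e itself was found in 77.5% and 72.7% of control and 83.7% and 86.4% of cKO Th1-like cells, and its log2 difference was 0.08 (edgeR adjusted p = 0.999).

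Markers of other cell types were read in the same sums. B cell genes had 9 of 13 tested, 5 higher, none called, with a median of 0.45, and 4 of them were higher at unadjusted p below 0.05, against 1.9% of all genes. Cd74 was found in 59.2 to 68.2% of cells in every library, and 150 of its 198 UMIs in cKO batch 1 came from 1 cell. That cell also held 128 UMIs of myeloid genes, had no UMI of the 4 interferon genes and was not marked by the doublet score. The summed B cell list stood at 618 and 941 CPM in controls and 1534 and 850 CPM in cKO, and the myeloid list at 159 and 147 against 541 and 207 CPM. Lists of NK cells (median -0.11), NKT cells (-0.13), gamma delta T cells (0.36) and regulatory T cells (-0.03) held no called gene, and the plasma cell list had 1 tested gene, at 0.34. Red cell and platelet genes and Cd8a and Cd8b1 had no tested gene, the last 2 by the rule.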

How the data were processed

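UMI counts per gene and cell were taken as the authors deposited them, per the labels from libraries of the SeekOne DD 3′ kit. The submitters' processing notes name the builds GRCm38 and mm10, and no aligner was named in the sources read. Barcodes were kept with over 100 genes detected and a mitochondrial share of 10% or less. Counts of Th1-like cells were summed per library and fitted with edgeR 4.0.16 in R 4.3.3 (TMM scaling, filterByExpr, robust quasi-likelihood fit, prior count 2), with Benjamini-Hochberg adjustment over all genes tested and a threshold of 0.05. SE values follow from the F statistic. DESeq2 1.42.0 served as an alternative. Libraries, not cells, were the replicates; they are pools of mice, so p-values measure the spread between pools. The numbers 1 and 2 mark batches named in the labels; deviations of libraries of the same batch correlated at r = 0.209 over 6912 genes. A doublet score was computed per library by simulated doublets.

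Named genes were the 12 in each direction with the lowest p whose groups did not overlap, and for Th1-like against naive cells the 20 in each direction with the highest smallest-per-library CPM ratio (at least 20 CPM in the higher class, sums under 3 UMIs set to 3 per library); genes of the rule, receptor segments, mitochondrial, ribosomal protein and predicted genes were left out. Gene positions are from GENCODE vM21. Members, gene lists and alternatives were chosen with earlier results of these data known. In a test on simulated counts of 6589 genes, 2 unchanged genes were called. The 4 libraries of sorted YFP+ cells entered no comparison. Some genes of the lists and of the naive rule are not reported here.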

Additional observations from a re-analysis of the deposited data

Results flagged for a closer look

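For 16 genes the difference between genotypes was not the same in Th1-like and naive CD4 T cells by the genotype by class term (edgeR quasi-likelihood test, Benjamini-Hochberg adjusted p of 6.12e-04 to 0.0414). Each value is the log2 difference in Th1-like cells minus that in naive cells. It was positive for Ifit1 (3.08), Ramp3 (1.99), Coro2a (1.99), Fos (1.51), Atp8b4 (1.42), Vim (1.27), Crip1 (1.12) and Tagln2 (1.02). It was negative for Samd3 (-3.57), Ifngas1 (-2.97), Eomes (-2.55), Hivep3 (-1.90), Lyst (-1.35), Sidt1 (-1.27), Ncl (-0.80) and Foxn3 (-0.70). With batch terms in place of the library block none of the 16 passed.

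Most of these genes had a larger difference between genotypes in naive cells than in Th1-like cells. Ifngas1, an antisense RNA beside Ifng, stood at 2.96 and 0.797 CPM in control and 28.7 and 74.6 CPM in cKO naive cells, and at 20.05 and 16.3 against 34.0 and 44.3 CPM in Th1-like cells. Samd3 was at 1.48 and 0 against 12.2 and 41.7 CPM in naive cells. Lyst, a regulator of lysosomes, was at 177 and 88.1 against 424 and 425 CPM in naive and at 407 and 330.1 against 586 and 371 CPM in Th1-like cells. Ifit1 differed more in Th1-like cells. The cause of these differences was not tested.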

How the results depend on the processing

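The share of Th1-like cells among CD4 T cells, a log2 difference of -0.83, kept its direction under every alternative run but passed 0.05 under only some. It no longer passed with the batch as a replicate block (-0.83), with cells carrying NK, NKT or gamma delta genes left out (-0.75), with cells thinned to 2000 UMIs (-1.01), as a share of all cells (-0.37), outside the Foxp3 and follicular helper classes (-0.029), or by the exact permutation test (-0.84). Leaving out each library gave -1.002 to -0.65. These fits leave 1 library in a genotype and are not counted here as passing. The 6 genes that differed between genotypes became 52 with the replicate block, 12 without cells carrying NK, NKT or gamma delta genes, 37 without a filter on low counts, 2 with DESeq2 and 1 with the highest cell of each gene not counted. With at least 3 of the 5 Th1 genes 0 passed by edgeR (185 at unadjusted p below 0.05), with Ifit1 at 2.57 and Ifit3 at 2.61. Leaving out each library gave 9 to 33. The 16 genes of the genotype by class term became 0 with the replicate block (502 at unadjusted p below 0.05), 28 without cells carrying NK, NKT or gamma delta genes, 59 without a filter and 2 with DESeq2, and 39 to 74 without each library. Ifit1 was called in 13 of 14 alternatives, Ifit3 in 12 of 14, Rsad2 in 9 of 11, Isg15 in 9 of 14, Slfn5 in 7 of 14 and Nrgn in 8 of 12, and none of the 6 changed direction. The cause of these changes was not tested. Each genotype had 2 libraries, and 49 to 77 cells stood behind each library's sum.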

Other observations

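The libraries sorted for YFP, the reporter of Cγ1Cre, entered no comparison. They held few CD4 T cells, and the rule for Th1-like cells was met by 5 of 111 and 0 of 15 of them in the control libraries and by 5 of 145 and 1 of 17 in the cKO libraries.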
